A study of Mus musculus with 8 samples.

Results

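Cytosolic ribosomal proteins are the protein parts of the ribosome that translates nuclear messages, and 88 genes with this kind of name were read on the arrays. A gene was taken in when its RefSeq symbol began with Rpl or Rps and a number, or was Rplp0, Rplp1 or Rplp2. S6 kinases and pseudogene symbols were left out. The 88 genes had 150 of the 56605 probes, and 86 of them passed the filter on dim probes, among 29362 tested features. The other 2 were Rpl10l, well above background in 0 of 16 channels, and Rpl3l, well above background in 2. Rpl10l is a testis paralog of Rpl10, and Rpl3l is a muscle paralog of Rpl3. By name alone, 52 of the 86 tested genes were counted to the large subunit and 32 to the small subunit. Among them are Rpl7l1, a factor of ribosome assembly, Rpl37rt, a retrocopy, and Rps4l, which is annotated as a transcribed pseudogene. The remaining 2 were counted to neither subunit: Rps19bp1, which encodes a protein that binds Rps19, and Rps23rg1, a retrocopy of Rps23.

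A ribosome has a small subunit that reads the message and a large subunit that forms the peptide bond. Ribosomal protein genes are among the most strongly expressed genes of every cell, and their messages start with a run of pyrimidines through which mTORC1 controls their translation. Some ribosomal proteins have paralogs that can take their place, and several have roles outside the ribosome, such as the binding of Mdm2 by Rpl5 and Rpl11 during ribosome stress.

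Total RNA came from the right fronto-parietal cortex of 16 mice, read on 8 Agilent 2-colour arrays with 1 animal per colour. The 4 groups of 4 animals were floxed controls, controls deficient in microglia-derived Il6, cryolesioned floxed animals and cryolesioned Il6-deficient animals. A cryolesion is a local wound that is made by freezing brain tissue. Floxed animals carry a gene flanked by recombination sites, and deficient animals lack Il6 from microglia. The labels name no Cre driver, age or time after injury, and do not say whether controls had surgery. The arrays formed a loop with 2 arrays of opposite dye per side. On the floxed-lesion side, cryolesioned floxed animals met deficient controls. On the deficient-lesion side, cryolesioned deficient animals met floxed controls. The control side and the lesion side set the genotypes against each other.

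Il6 was close to the detection limit: the brighter of its probes was detected in 3 of 4 cryolesioned floxed animals and in 0 of 4 in each other group. Per channel, 59.2% to 65.9% of probes rose well above background. By Xist and 4 Y-linked genes, 3 of 4 floxed controls and 1 of 4 deficient controls were of the Xist type. Among cryolesioned animals 0 of 8 were. Sex was thus not balanced with injury or, among controls, with genotype. Markers of cortical cell types were present. Of the cryolesion changes of marker genes, neutrophil markers had a median of 2.24 on the log2 scale (2 of 3 rose) and monocyte and macrophage markers 0.61 (4 of 6 rose). The median was -0.33 for neuron markers (1 of 6 fell) and -0.44 for oligodendrocyte markers (1 of 4 fell). Of 4 markers of cortical projection neurons 1 fell, and of 3 markers of oligodendrocyte precursors 2 fell. Microglia and astrocyte markers went both ways: 2 of 7 microglia markers rose and 3 fell, and 2 of 6 astrocyte markers rose, with Gfap at 3.58, and 2 fell. Of 4 endothelial markers 1 fell, of 4 markers of meninges and choroid plexus 1 rose, and 0 of 2 lymphocyte and 0 of 3 erythroid markers were called. The mean log2 level of the neutrophil markers ran from 6.74 to 7.17 in controls and from 7.96 to 9.46 in cryolesioned animals. In whole cortex, more cells of a type and more RNA per cell cannot be told apart, and the part of cell makeup in the results was not tested.

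The starts of 4 genes are shown because they carry the main contrasts described here. Rplp0 and Rpl18 rose with cryolesion in both genotypes, Rps27l changed most, and Rps27 is its paralog. Each line gives 100 bases from RefSeq (GRCm38.p6), from 70 bases before a transcript start to 30 bases after it, on the strand of the gene. The start is the most upstream one with a window in the sequence table. For Rps27l and Rpl18 it lies inside the annotated gene, which begins further upstream, at base 66944624 for Rps27l and 45715467 for Rpl18. Capitals mark pyrimidine runs of at least 7 bases.
Rps27l (chr9:66946016-66946115, + strand): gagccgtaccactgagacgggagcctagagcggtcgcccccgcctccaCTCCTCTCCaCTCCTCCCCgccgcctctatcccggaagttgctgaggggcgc
Rps27 (chr3:90213619-90213718, - strand): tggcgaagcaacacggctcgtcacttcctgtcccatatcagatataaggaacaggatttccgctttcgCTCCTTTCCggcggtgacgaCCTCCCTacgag
Rplp0 (chr5:115559397-115559496, + strand): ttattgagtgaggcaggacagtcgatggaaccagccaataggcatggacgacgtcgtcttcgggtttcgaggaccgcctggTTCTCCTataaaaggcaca
Rpl18 (chr7:45718001-45718100, + strand): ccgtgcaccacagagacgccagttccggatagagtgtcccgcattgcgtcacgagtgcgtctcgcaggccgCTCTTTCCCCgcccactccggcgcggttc

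The longest run was 10 bases in Rpl18, 9 in Rps27 and Rps27l, and 7 in Rplp0. In Rps27 and Rpl18 a run lies at or next to the start used here, whereas in Rps27l the runs lie before it. These starts may differ from the start used in cortex. RefSeq windows were matched for 65 of the 86 genes, including all 10 that rose. Such a run was found in 45 of the 65 genes (69.2%) and in 13701 of 27025 genes with a window (50.7%). The letters CCGGAAG, the core bound by ETS factors, were searched on both strands in windows of 300 bases. They were found in 24 of 65 ribosomal protein genes (36.9%), against 9.14% of all genes. The letters AAGATGGC, a core bound by YY1, were found in 6 of 65 (9.23%), against 2.87% of all genes. Among the 10 genes that rose, 3 held the ETS core and 6 a pyrimidine run. Among the 55 matched genes that did not pass the test, 21 held the ETS core and 39 a run.

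The first question was what cryolesion changed, taken as the mean of both genotypes, which had smaller errors than the cryolesion comparison within either genotype. Of 86 ribosomal protein genes, 10 rose and 0 fell at a limma adjusted p under 0.05. The share of members that rose was 11.6%, against 6.02% of all tested features, and 0 fell against 5.87% of all features. Counted in either direction, 11.6% of members and 11.9% of all features were called, so calls as such were no more frequent among them. At an unadjusted p under 0.05, 28 members were higher and 2 lower (34.9%, against 28.5% of all features). Of the 29362 features, 3944 were higher and 4422 lower at that level. The directions were uneven: 68 of 86 estimates (79.1%) lay above 0, against 47.6% of all features. The median log2 change was 0.13 for the members and -0.01 for all features. The large subunit had 5 of 52 genes that rose and a median of 0.10, and the small subunit 5 of 32 and a median of 0.13. Most of the changes were therefore small, and the plot of sorted changes shows a gradual slope with Rps27l alone at its upper end.

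**Figure D1:**
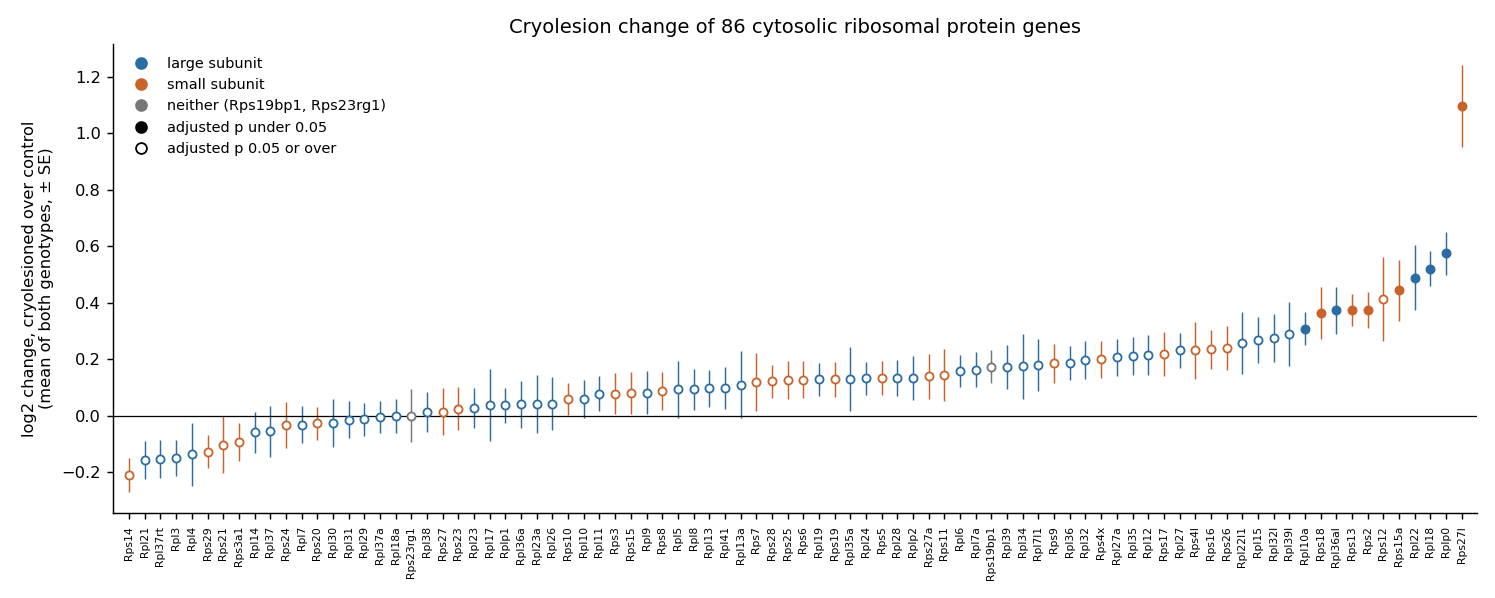
Log2 change with cryolesion (y axis, mean of both genotypes, points with SE) for each of the 86 tested genes (x axis, sorted), coloured by subunit, with filled points at an adjusted p under 0.05. Rps27l lies at 1.10, the other 9 filled points between 0.31 and 0.57, and Rps14 is lowest at -0.21.

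Rps27l, a small-subunit paralog of Rps27 that is known as a target of p53, changed most. Its log2 levels were 11.07, 11.45, 11.26 and 11.49 in floxed controls and 11.13, 10.90, 10.98 and 10.94 in deficient controls. They were 12.04, 12.46, 12.41 and 12.61 in cryolesioned floxed animals and 11.77, 12.03, 12.40 and 12.15 in cryolesioned deficient animals. All 8 cryolesioned animals lay above all 8 controls. The change was 1.10 ± 0.14 (SE; 2.14-fold), with a limma adjusted p of 0.00627. A second Rps27l probe gave 1.14 and was also called. Its paralog Rps27 did not follow: the change was 0.02 ± 0.08 (95% interval -0.18 to 0.21, adjusted p = 0.932). Its levels ran from 15.05 to 15.41 in controls and from 15.10 to 15.51 in cryolesioned animals, which overlap almost fully. The pair was set side by side with no test of the difference between the probes.

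Rplp0, the base of the ribosomal stalk that recruits elongation factors, was next. Its log2 levels were 14.01, 14.01, 13.91 and 14.15 in floxed controls and 13.90, 13.96, 14.03 and 14.05 in deficient controls. After cryolesion they were 14.60, 14.90, 14.48 and 14.62 in floxed animals and 14.47, 14.60, 14.56 and 14.38 in deficient animals. Every cryolesioned animal lay above every control. The change was 0.57 ± 0.08 (1.49-fold, limma adjusted p = 0.00624). The other stalk proteins, Rplp1 and Rplp2, changed by 0.04 ± 0.06 and 0.13 ± 0.08 and did not pass the test. Rplp0 is often used as a reference gene for expression measurements. Its gene lies at chr5:115559467-115563729.

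Rpl18, a large-subunit protein, had the lowest adjusted p of the 86 genes. Its levels were 13.31, 13.38, 13.24 and 13.34 in floxed controls and 13.21, 13.20, 13.25 and 13.34 in deficient controls. They rose to 13.85, 14.05, 13.78 and 13.79 in cryolesioned floxed animals and 13.74, 13.72, 13.71 and 13.65 in cryolesioned deficient animals. The groups did not overlap. The change was 0.52 ± 0.06 (1.44-fold, limma adjusted p = 0.00435), and both Rpl18 probes were called.

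**Figure D2:**
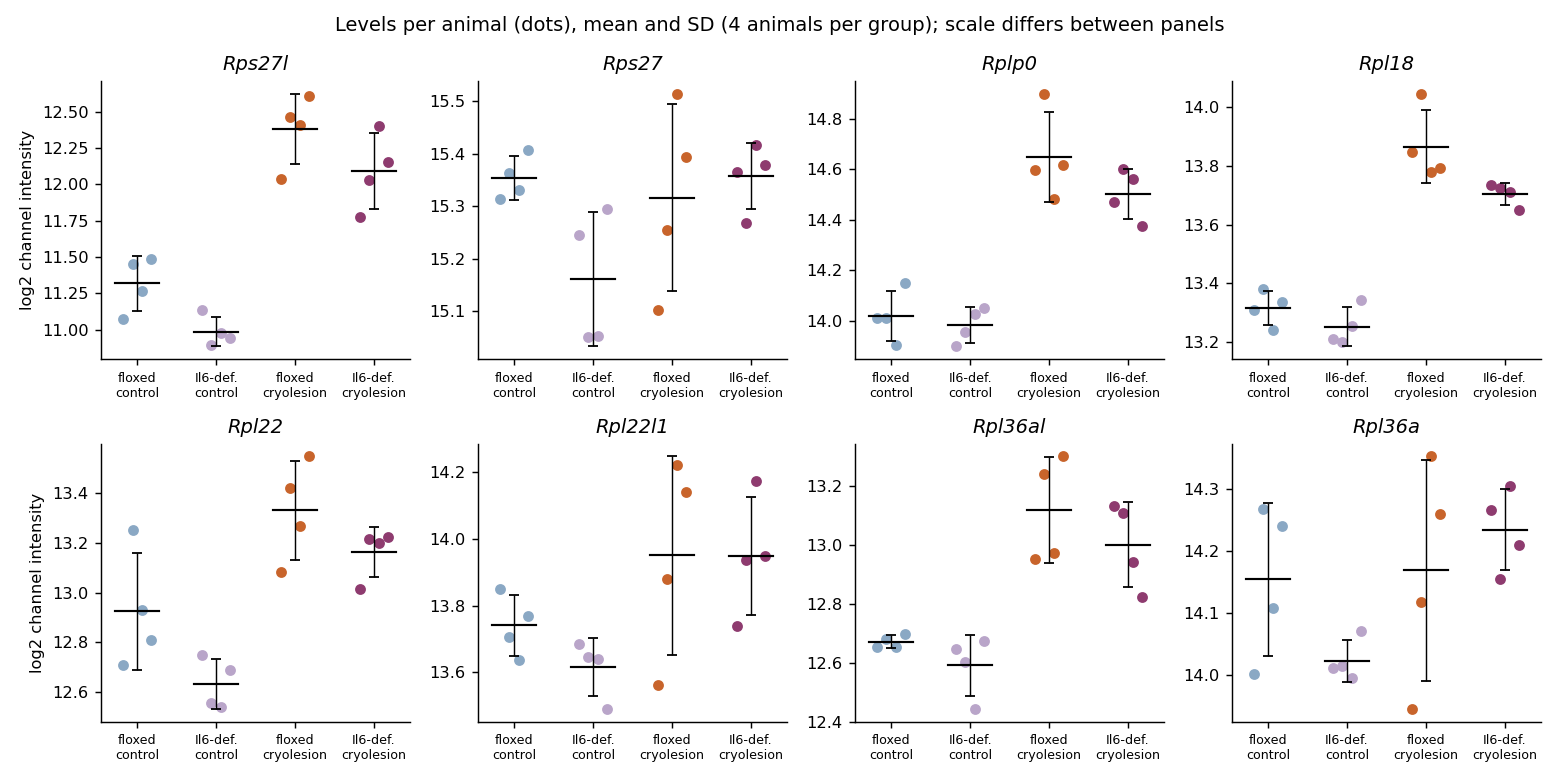
Log2 channel intensity (y axis, separate scale per panel) of 8 genes in each animal of the 4 groups (x axis), with the mean and SD of 4 animals. Rps27l, Rplp0, Rpl18 and Rpl36al show no overlap between cryolesioned and control animals, Rpl22 overlaps by 1 floxed control, and Rps27, Rpl22l1 and Rpl36a overlap.

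The other large-subunit genes that rose were Rpl22, Rpl36al and Rpl10a. Rpl22, an RNA-binding protein that is dispensable for most translation, changed by 0.49 ± 0.11 (limma adjusted p = 0.0389). Its levels ran from 12.54 to 13.25 in controls and from 13.01 to 13.55 in cryolesioned animals, where 1 floxed control reached the lesioned range. Its paralog Rpl22l1 changed by 0.26 ± 0.11 and did not pass (adjusted p = 0.18). Rpl36al, the autosomal copy of the X-linked Rpl36a, changed by 0.37 ± 0.08 (adjusted p = 0.0343), with controls at 12.44 to 12.70 and cryolesioned animals at 12.82 to 13.30. Rpl36a itself changed by 0.04 ± 0.08. Rpl10a changed by 0.31 ± 0.06 (adjusted p = 0.0205), from 14.61 to 14.83 in controls to 14.91 to 15.21 after cryolesion. The 2 ranges of Rpl10a do not meet.

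The small-subunit genes that rose beside Rps27l were Rps15a, Rps2, Rps13 and Rps18. Rps2 lay between 13.21 and 13.59 in controls and between 13.72 and 14.15 in cryolesioned animals, a change of 0.38 ± 0.06 (limma adjusted p = 0.0148). Rps13 lay between 14.37 and 14.57 in controls and between 14.72 and 15.02 in cryolesioned animals, a change of 0.37 ± 0.06 (adjusted p = 0.0104). The ranges of Rps2 and Rps13 are thus apart. Rps18 changed by 0.36 ± 0.09 (adjusted p = 0.0484), with controls at 15.62 to 16.07 and cryolesioned animals reaching 16.32. Rps15a changed by 0.44 ± 0.11 (adjusted p = 0.0434), with controls at 13.77 to 14.26 and cryolesioned animals at 14.15 to 14.66. These ranges of Rps18 and Rps15a overlap. Of 3 Rps15a probes, only the brightest was called, and the dimmest changed by 0.06. Rps12 had a similar estimate of 0.41 ± 0.15 but a larger error, and did not pass (adjusted p = 0.121).

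At the lower end none passed the test. Rps14 changed by -0.21 ± 0.06 (limma adjusted p = 0.0652), and by 0.03 when arrays were centred on their median in place of loess. Its levels were 15.62, 15.62, 15.91 and 15.81 in floxed controls and 15.77, 15.49, 15.55 and 15.71 in deficient controls. They were 15.39, 15.38, 15.71 and 15.58 in cryolesioned floxed animals and 15.73, 15.46, 15.65 and 15.72 in cryolesioned deficient animals, and all groups overlapped. The next estimates were -0.16 for Rpl21, -0.15 for Rpl37rt and Rpl3, -0.14 for Rpl4 and -0.13 for Rps29. Rpl3 shapes the peptidyl transferase centre, and Rpl37rt is a retrocopy of Rpl37 whose probe may read both. The Rpl37rt probe lay at log2 levels of 16.22 to 16.74, and the probe of Rpl37 itself was dim, at 6.48 to 6.96. Rps14 and Rpl21 were below 0 on each of the 4 arrays that set cryolesioned against control animals.

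Members known for roles outside the ribosome or for late assembly gave small estimates that did not pass the test. The 5S particle proteins Rpl5 and Rpl11, which bind Mdm2, changed by 0.09 ± 0.10 and 0.08 ± 0.06. Rps6, the substrate of the S6 kinases, changed by 0.13 ± 0.07. Rpl10, which joins late in large-subunit assembly, changed by 0.06 ± 0.07. Rpl13a, which silences inflammatory messages when released, changed by 0.11 ± 0.12. Rpl38, which aids the translation of Hox messages, changed by 0.01 ± 0.07. Rps3, also a DNA repair enzyme, changed by 0.08 ± 0.07. Rps19, mutated in Diamond-Blackfan anaemia, changed by 0.13 ± 0.06, and its partner Rps19bp1 by 0.17 ± 0.06. Among these 9 genes the lowest adjusted p was that of Rps19bp1, 0.103.

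The remaining paralog pairs showed no call on either side. Rpl7 changed by -0.03 ± 0.07 and Rpl7l1, a factor of ribosome assembly, by 0.18 ± 0.09. Rpl39 changed by 0.17 ± 0.08 and Rpl39l, a copy best known from testis, by 0.29 ± 0.11 (adjusted p = 0.145). Rpl39l was dim, with log2 levels of 5.95 to 6.64 over all animals. Its change was 0.23 in a separate-channel fit and 1.66 with the scanner software's processed signals. Rps4x changed by 0.20 ± 0.07 and the transcribed pseudogene Rps4l by 0.23 ± 0.10. The 4 X-linked genes, Rpl10, Rpl36a, Rpl39 and Rps4x, had estimates of 0.06, 0.04, 0.17 and 0.20.

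The same direction was seen on each array that held both states. The members' median ratio of cryolesioned over control was 0.20 and 0.07 on floxed-lesion arrays 1 and 2, and 0.08 and 0.11 on deficient-lesion arrays 1 and 2. The medians of all features on these arrays lay between -0.03 and 0.01. Of the 86 genes, 30 were above 0 on all 4 arrays and 2 on none. Levels of the 8 cryolesioned animals lay wholly above those of the 8 controls for 9 genes (10.5%, against 3.38% of all features), and wholly below for 0 (against 1.59%). These 9 were Rpl6, Rpl7a, Rpl10a, Rpl18, Rpl36al, Rplp0, Rps2, Rps13 and Rps27l.

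**Figure D3:**
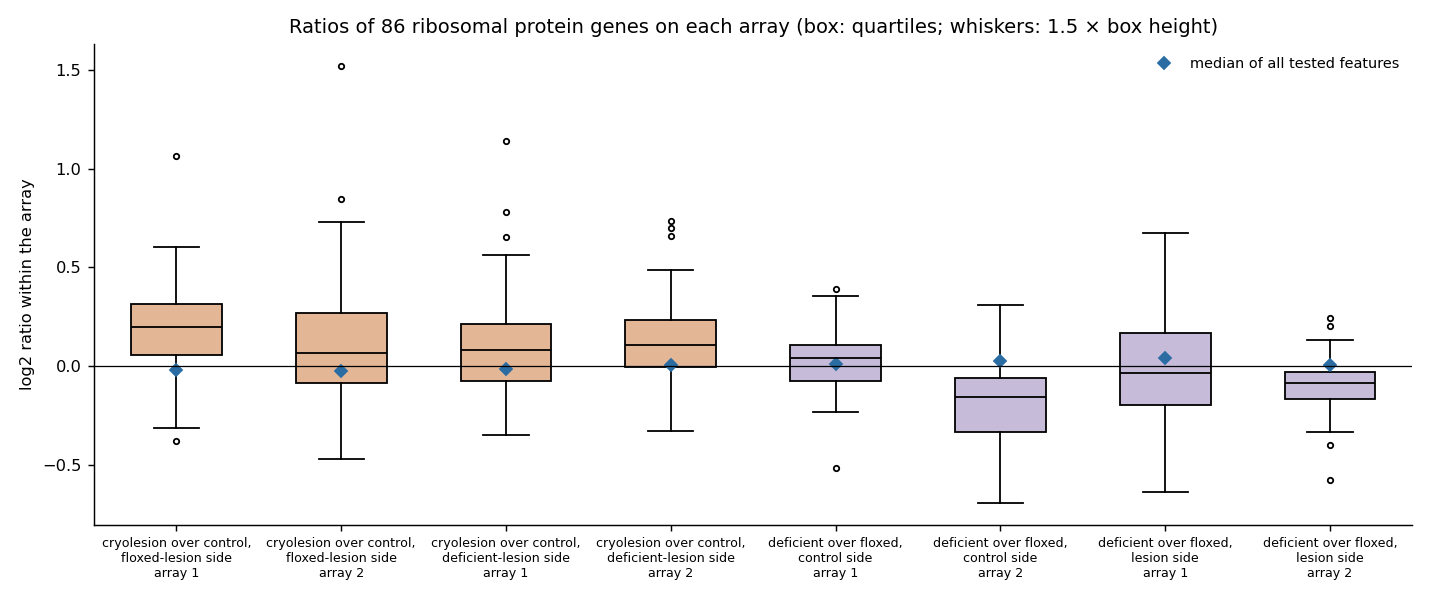
Log2 ratio within each of the 8 arrays (x axis) for the 86 genes, as boxes of quartiles with whiskers to 1.5 box heights, and the median of all tested features as diamonds. Member medians lie above the diamonds on the 4 arrays of cryolesioned over control, at 0.07 to 0.20.

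The count of 10 changed with the arrays, the fit and sex. It was 6 with sex as a covariate, when 4.47% of all features rose, and Rps27l then changed by 0.86. With animal numbers as terms of the fit it was 1, Rps27l. It was 3 without floxed-lesion array 2 or deficient-lesion array 2, 5 without floxed-lesion array 1 or lesion array 2, and 6 without control array 1. These counts with 1 array left out are given without the share of all features called. Rps27l, Rplp0 and Rpl18 were called with any 1 of the 8 arrays left out. A fit of the separate channels called 40 genes higher, and 12.9% of all features. With every probe of a gene tested, 17 probes of 11 genes were called. The scanner software's own processed signals gave 4 genes, with 4.33% of all features higher. Median centring in place of loess gave 8 genes that rose and a higher median of 0.29. These genes were bright, with a median log2 intensity of 14.67 against 7.86 for all features.

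Within each genotype the errors were larger and fewer genes passed. In floxed animals 3 genes rose (3.49%, against 1.86% of all features, 3.05% in either direction): Rps27l by 1.28 ± 0.20 (limma adjusted p = 0.0275), Rpl18 by 0.48 ± 0.09 (adjusted p = 0.0369) and Rplp0 by 0.54 ± 0.11 (adjusted p = 0.0498). None fell, against 1.19% of all features. At an unadjusted p under 0.05 there were 17 higher and 0 lower (19.8% of members, against 19.6% of all features in either direction). In Il6-deficient animals 2 genes rose (against 1.67% of all features, 2.73% in either direction): Rpl18 by 0.56 ± 0.09 (adjusted p = 0.0284) and Rplp0 by 0.61 ± 0.11 (adjusted p = 0.0400). Again 0 fell, against 1.07%. At an unadjusted p under 0.05 there were 20 higher and 1 lower (24.4% of members, against 19% of all features in either direction). Rps27l had an estimate of 0.92 ± 0.20 there and did not pass (adjusted p = 0.0725). With 1 array left out, the counts ran from 0 to 5 in floxed and from 0 to 1 in deficient animals. The floxed count was 5 without control array 2, 1 without lesion array 1 or deficient-lesion array 1, and 0 without any other. The deficient count was 1 without deficient-lesion array 1 and 0 without any other. The share of all features called is not given beside these counts.

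The medians over the 86 genes were 0.10 in floxed and 0.13 in deficient animals, with 66 and 71 estimates above 0. In floxed animals 14 genes had cryolesioned levels wholly above the controls (16.3%, against 7.32% of all features). In deficient animals there were 36 such genes (41.9%, against 8.41%). Wholly lower levels were found for 0 genes in both, against 7.49% and 8.84% of all features. The median deviation of the 86 genes from each gene's median over 16 animals was -0.13, -0.01, 0.01 and -0.01 in floxed controls, and -0.08, -0.20, -0.23 and -0.03 in deficient controls. It was -0.03, 0.04, 0.13 and 0.11 in cryolesioned floxed animals and 0.10, 0.03, 0.08 and 0.10 in cryolesioned deficient animals. The deficient controls were lowest as a group, with 2 animals below all others. These 2 were the deficient controls labelled with Cy3, and those at -0.08 and -0.03 were labelled with Cy5. The levels per animal, on which the counts of wholly higher or lower genes rest, carry no dye term.

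The second question was what lack of microglia-derived Il6 changed. In limma's fit 0 of 86 genes were called in control animals, 0 in cryolesioned animals and 0 in the mean of both states. Of all features, 0%, 0% and 0.00341% were called, and a separate-channel fit called 0 members too. At an unadjusted p under 0.05, 2 members were lower in controls (2.33%, against 4.42% of all features in either direction). In cryolesioned animals 4 were lower and 1 higher (5.81%, against 8.61% in either direction). In the mean of both states 7 members had an unadjusted p under 0.05 (8.14%, against 14.1% of all features), so such values were less frequent among members. Each of the 7 had a lower estimate in deficient animals: Rps2, Rps4x, Rps9, Rps19bp1, Rps27l, Rpl18 and Rpl22. The largest was Rps27l at -0.31 ± 0.10 (95% interval -0.55 to -0.07, limma adjusted p = 0.299), followed by Rpl22 at -0.23 ± 0.08 and Rps12 at -0.19 ± 0.11. With sex as a covariate Rps27l (-0.43) and Rpl22 (-0.32) passed, when 1.43% of all features were called lower. The largest positive estimates were 0.15 for Rpl4 and 0.09 for Rpl37rt and Rps4l.

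The member median for genotype was -0.06 in controls, -0.04 in cryolesioned animals and -0.05 in the mean. Its sign was not stable within cryolesioned animals, where it was 0.01 without lesion array 1. The medians of deficient over floxed on single arrays were 0.04 and -0.16 on the control side and -0.03 and -0.09 on the lesion side, so the control arrays differed in sign. In controls 9 genes lay wholly lower in deficient than in floxed animals (10.5%, against 2.21% of all features) and 0 higher (against 1.79%). They were Rpl10a, Rpl34, Rpl39, Rps4x, Rps9, Rps12, Rps21, Rps23 and Rps27. Sex also differed between these control groups. The levels carry no sex or dye term, and the reported fit has no sex term. In cryolesioned animals Rpl18, Rps19bp1 and Rps26 lay wholly lower (against 1.34%) and Rpl14 wholly higher (against 3.11%).

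The third question was whether the cryolesion response differed between genotypes. The interaction called 0 of 86 genes and 0% of all features in limma's fit. It draws on the controls, whose sex differed between genotypes, and the fit held no sex term. At an unadjusted p under 0.05 there were 2 members (2.33%, against 3.31% of all features). They were Rpl7 at -0.34 ± 0.13 (95% interval -0.66 to -0.03) and Rpl35 at 0.34 ± 0.13 (0.02 to 0.66), both with an adjusted p of 1. The levels of Rpl7 ran from 13.80 to 14.25 in controls and from 13.91 to 14.28 in cryolesioned animals, and those of Rpl35 reached 16.31 and 16.67, and both overlapped. For Rps27l the interaction was -0.36 with an interval of -1.05 to 0.32, which leaves a wide range of differences possible. For Rplp0 it was 0.07 (-0.29 to 0.43) and for Rpl18 0.08 (-0.21 to 0.37). Further large estimates were -0.37 for Rps4l, 0.32 for Rps15 and 0.29 for Rpl38. The member median was 0.03, and -0.25 with median centring.

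Genes that build, regulate or accompany ribosomes were then read in the mean cryolesion comparison. Of all features, 6.02% rose and 5.87% fell there. Of 34 ribosome assembly genes 10 rose (29.4%) and 0 fell, with a median of 0.29. The helicase Ddx21, which acts in rRNA transcription and processing, changed by 1.43 ± 0.11 (limma adjusted p = 0.00109), and Nip7, needed for rRNA processing, by 0.57 ± 0.07 (adjusted p = 0.00411). None of 13 RNA polymerase I genes passed, with a median of 0.09 and Polr1e (0.32) and Polr1a (0.29) largest. Of these 13, 5 had an unadjusted p under 0.05. Of the 4 subunit genes without an Rpl or Rps number name, Rpsa rose by 0.45 ± 0.06 (adjusted p = 0.00555) and Rack1 by 0.41 ± 0.08 (adjusted p = 0.0257).

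A mixed list of translation factors and other messages known for a pyrimidine start had calls in both directions. Of its 27 genes 4 rose (14.8%) and 2 fell (7.41%), with a median of 0.03. Poly(A)-binding proteins Pabpc4 (0.79 ± 0.11) and Pabpc1 (0.36 ± 0.08) and the eIF2 subunits Eif2s1 (0.46) and Eif2s2 (0.35) rose, and Eif4b (-0.35) and Eif3h (-0.24) fell. The largest estimate, 0.82 ± 0.41 for Eif2s3x, did not pass. Of 21 genes of mTORC1, S6 kinases and Myc, 3 rose (14.3%) and 2 fell (9.52%), with a median of -0.04. Myc, an activator of ribosome genes, rose by 1.26 ± 0.17 (limma adjusted p = 0.00661), and Eif4ebp1, an inhibitor of cap-dependent translation, by 0.99 ± 0.11 (adjusted p = 0.0037). The kinase Rps6ka1 rose by 0.34 ± 0.07 (limma adjusted p = 0.0258). Mycn, a second Myc family member, changed by -0.88 ± 0.18 (limma adjusted p = 0.0248), and Mxi1, an antagonist of Myc, by -0.56 ± 0.10 (adjusted p = 0.0174). Of 10 genes of Mdm2 and p53, Cdkn1a, which arrests the cell cycle, rose by 1.85 ± 0.40, and Sesn1 (-0.58) and Zmat3 (-0.51) fell. Of 78 mitochondrial ribosomal protein genes 6 rose (7.69%) and 1 fell (1.28%), with a median of 0.03, so 8.97% were called in either direction, against 11.9% of all features.

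**Figure D4:**
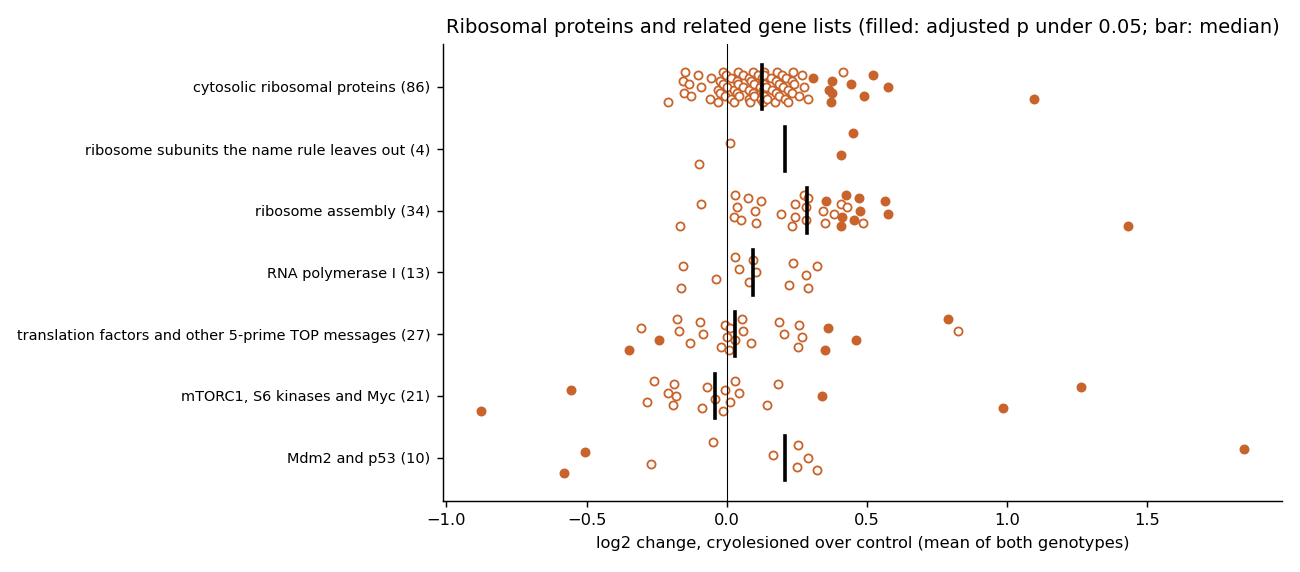
Log2 change with cryolesion (x axis, mean of both genotypes) of single genes (points, filled at an adjusted p under 0.05) in the cytosolic ribosomal proteins and 6 related lists (y axis, number of genes in brackets), with list medians as bars. The ribosome assembly genes have the highest median, 0.29, and the mTORC1 list the lowest, -0.04.

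Genes with several probes gave a check within the arrays. For 46 of the 86 genes more than 1 probe passed the filter, and the median gap between a gene's highest and lowest probe was 0.07 in the mean cryolesion change. The widest gap was 0.49 for Rpl30, whose brighter probes lay near 0 while its dimmest probe was at 0.46. Among 148 member probes 17 were called higher and 0 lower, when 11.2% of all kept probes were called in either direction. With 0 called lower, no gene could have probes called in opposite directions. Ribosomal protein genes have many processed copies in the genome, and probes may read more than 1 of them, which was not tested.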

How the data were processed

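Scanner files of 8 arrays were used. Per the file headers, they were made with Agilent Feature Extraction, version 10.7.3.1 per the submitters' processing notes. The deposited files give median spot and background intensity in Cy5 and Cy3, processed intensities and a log10 ratio. The authors' deposited table holds log2 ratios (normalization not given in the sources used here) and served as an alternative. Background was corrected with normexp (offset 50), and ratios were normalized within arrays by loess. Control and outlier spots were left out, and 0 spots were saturated. Probes well above background in at least 4 of 16 channels were kept, and the brightest probe stood for a gene. Of 56605 probes, 32994 were named by RefSeq accession. Ratios were fitted with limma 3.58.1 in R 4.3.3, with a dye term and 4 residual degrees of freedom, and p-values were adjusted by Benjamini-Hochberg over all 29362 features. The script was tested on simulated data with the spreads of all tested features. In the mean cryolesion comparison it called 12 of 50 simulated log2 changes of 0.4 and 30 of 50 of 0.8. It called 45 of 50 of 1.2 and 31 of 50 of -0.8. Many changes of the size seen here could thus be missed. Levels per animal are log2 intensities after loess and Aquantile normalization, with no dye term. All arrays were on 1 slide, so slide could not be tested. The labels call the animals biological replicates.

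Named are members called in any comparison, those with the largest estimates, members of known role, paralog pairs and Rps19bp1. Rpl6 and Rpl7a, and Rpl14, Rpl34, Rps9, Rps21, Rps23, Rps26, Rpl30, Rpl37 and Rps23rg1, were named after their values were seen. Other lists are given as counts and medians. The members and lists were chosen with earlier results of these data known. Whether animal numbers in the labels pair the animals was not settled. Same-numbered animals correlated at -0.251 to 0.529, with 10 of 24 pairs over 0.1, but no differently numbered pairs are given for comparison. The alternatives were other background, normalization, filter, probe and dye choices, a separate-channel fit, a replicate block, sex as a covariate, and each array left out.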

Additional observations from a re-analysis of the deposited data

Results flagged for a closer look

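In 2 of 68 groups of 4 examined, over 17 genes, 1 animal lay far from the other 3 of its group, and chance gives this in about 1 in 20 groups. Rpl22 was at 13.01 in 1 cryolesioned deficient animal, against 13.20 to 13.22 in the other 3. Rps15a was at 13.89 in 1 deficient control, against 13.77 to 13.78 in the other 3.

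Only members with the largest mean genotype or interaction estimates were looked at here. For 2 of them the genotype ratios had opposite signs on the control side and on the lesion side. The interaction is fitted to the same ratios, so choosing large interactions favours opposite signs. Rpl7 was higher in deficient animals on both control arrays (0.02 and 0.26) and lower on both lesion arrays (-0.30 and -0.10). The test of the difference, the interaction, gave -0.34 with an unadjusted p of 0.0354 and an adjusted p of 1 in limma. Rps4l was at 0.26 and 0.01 on control arrays and at -0.14 and -0.34 on lesion arrays. Its interaction was -0.37, with an unadjusted p of 0.107 and an adjusted p of 1 in limma.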

How the results depend on the processing

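The precision is limited by 8 arrays and 4 residual degrees of freedom, and many results sit near the threshold. Over all alternatives the members' median stayed above 0 in the 3 cryolesion comparisons, and Rps27l was called in the mean cryolesion comparison under each of 11 other settings and with each array left out. None of the 10 genes changed direction there.

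Of the settings, the counts of members called higher in floxed animals, deficient animals and their mean (reported as 3, 2 and 10) were as follows. The processed signals gave 0, 0 and 4. Offset 16 gave 1 in floxed and 1 in deficient animals. Median centring gave 1 and 0, and the authors' deposited values gave 1 and 0. The separate-channel fit gave 16, 28 and 40. Sex as a covariate gave 1, 0 and 6, and 2 members called lower for genotype in the mean of both states. With no filter on dim probes 5 were higher in deficient animals, and 1 (Rps14) was lower in the mean. No dye term gave 1 in deficient animals, and each probe on its own gave 17 in the mean. With the replicate block, in which animal numbers enter the fit, the counts were 0, 0 and 1. Whether these numbers pair the animals was not settled.

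With 1 array left out, the counts of members called higher ran from 0 to 5 in floxed animals, from 0 to 1 in deficient animals and from 3 to 13 in the mean. Fewer arrays leave fewer degrees of freedom. The counts by setting and by left-out array are given without the share of all features called. They therefore show how far the calls depend on the processing, and not a trait of the members.

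The median in floxed animals (0.10) was 0.18 with processed signals, 0.39 with median centring and 0.16 with the authors' table. Median centring also gave 0.29 for the mean cryolesion change, -0.32 for genotype after cryolesion, -0.19 for genotype in the mean and -0.25 for the interaction. The medians of all features under these settings are not given here. The causes were not tested.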
